A study of Mus musculus with 5 samples.

Results

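ATF4 is a basic leucine zipper (bZIP) transcription factor whose protein is made when initiation factor eIF2 is phosphorylated, a state known as the integrated stress response. In erythroblasts, the nucleated precursors of red cells, the eIF2 kinase HRI is switched on when heme is short, which ties ATF4 to heme supply. ATF4 pairs with C/EBP proteins to switch on further transcription factors and effectors, and because its own output is set largely by translation, its transcript need not follow its protein. The genes described here are 10 of that circuit, chosen as a list by name: the factors Atf4, Atf5, Atf3, Ddit3, Cebpb and Cebpg, and the effectors Trib3, Chac1, Nupr1 and Stc2. This list and the related lists below were drawn up with earlier results of these data known. Their counts are therefore no independent test. The 10 genes were found as every probe that the platform annotation gives one of these symbols, 16 of 45281 probes, of which 15 passed the filter on low signals. All 10 genes kept at least 1 probe among the 10133 genes tested.

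Total RNA came from marrow erythroblasts of C57BL/6J mice and was hybridised to Illumina bead arrays. By genotype label, 2 arrays are Flvcr deleted and 3 are wild type. Flvcr, now Flvcr1, encodes a cell-surface exporter of heme, and the design sets erythroid cells lacking the gene against those of wild-type mice. The sources used here give no age, no means of deletion and no statement that replicates were separate animals, so the p-values take in only how these arrays varied, which may be technical. Precision is limited by how few arrays there are.

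For Flvcr1, the log2 signal was 9.88 and 9.75 in arrays labelled Flvcr-deleted, against 8.16, 8.32 and 8.25 in those labelled wild-type, so it was higher where the label says that the gene is deleted. A second Flvcr1 probe lay below the background floor on every array and was left out. No source used here places the measured probe relative to the deleted sequence. It is therefore no check of the genotype, and all directions rest on the labels alone. Arrays correlated across probes with r between 0.989 and 0.992 within groups and between 0.948 and 0.954 across groups. Of the erythroid markers, 7 of 8 listed were tested and all 7 lay above the background floor of 6.83 on every array, while 4 of them (Epor, Alas2, Klf1 and Tfrc) fell. In a bulk sample fewer cells of a type and less RNA per cell cannot be told apart. Of the markers of other blood cells, none rose: 5 of 14 tested neutrophil, 1 of 14 macrophage and monocyte, 5 of 6 mast cell, basophil and eosinophil, 1 of 2 megakaryocyte, 1 of 2 T and NK cell and 2 of 4 B cell markers fell, beside 17.4% of all genes tested. The macrophage and monocyte share, 7.14%, was below that of all genes, and the last 3 lists hold too few genes to be read against it.

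The effectors Trib3, Chac1 and Nupr1 rose strongly in the arrays labelled Flvcr-deleted, and the factors Cebpb and Atf5 rose by more than 2-fold. Atf4 itself rose by a smaller amount that rests on few arrays. Ddit3, Cebpg, Atf3 and Stc2 did not pass the test. In counts, 6 of the 10 genes were called higher and none lower by limma (Benjamini-Hochberg adjusted p under 0.05 over all genes tested), against 21.7% of all genes tested called higher, 17.4% called lower and 39.1% called in either direction. The 3 strong effectors stood at ranks 3, 6 and 8 of the 10133 genes by log2 difference, and 0.355% of all genes tested were called higher by at least 4-fold. A rise of at least 2-fold was called in 4.62% of all genes tested. At an unadjusted p under 0.05 no member was lower either.

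**Figure D1:**
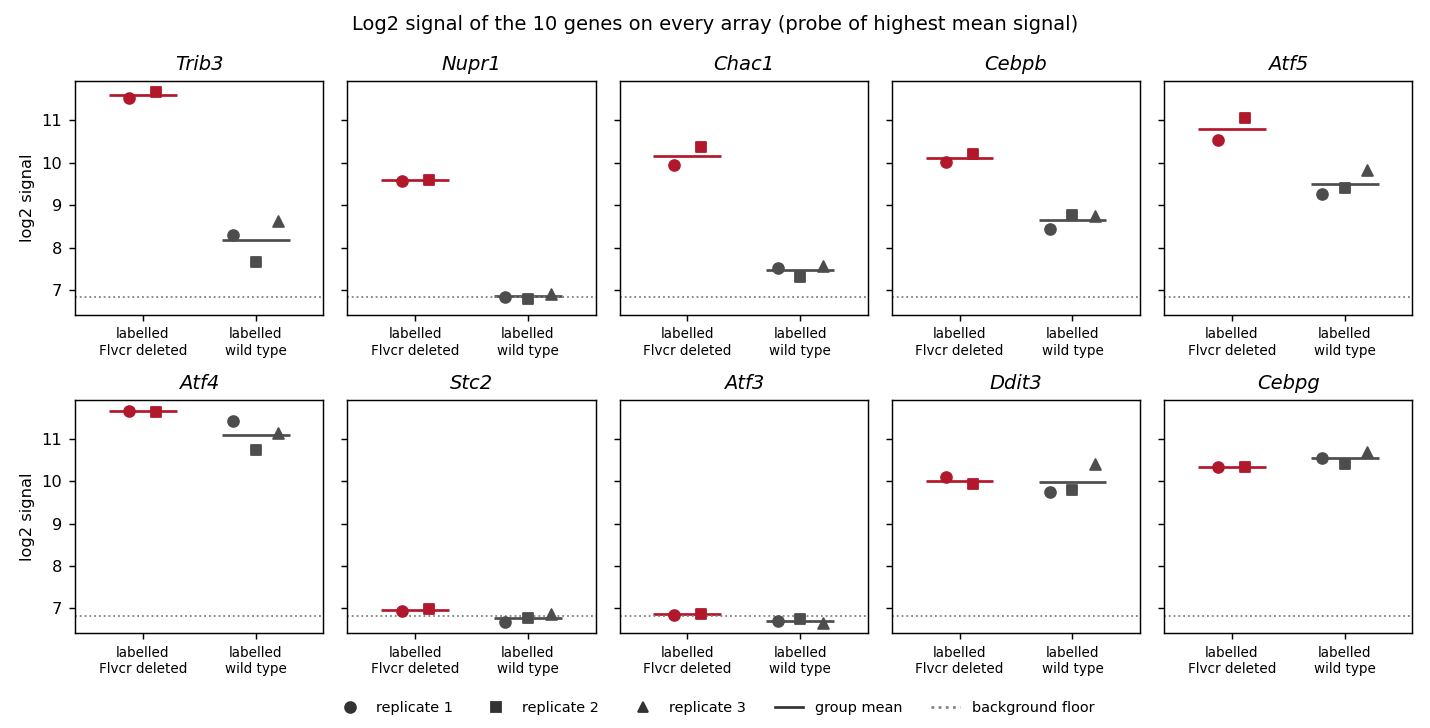
Log2 signal of each of the 10 genes (probe of highest mean signal) on every array, with the 2 arrays labelled Flvcr-deleted left and the 3 labelled wild-type right in each panel; horizontal bars are group means, point shapes give the replicate number and the dotted line is the background floor of 6.83. Genes run in order of their log2 difference, from Trib3 at 3.42 to Cebpg at -0.22, and only the panel of Ddit3 shows groups that overlap.

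Trib3 encodes a pseudokinase that is induced by ATF4 and binds it, which restrains its activity. Its brightest probe read 11.54 and 11.68 in arrays labelled Flvcr-deleted, against 8.28, 7.65 and 8.63 in those labelled wild-type. The groups lay far apart, and the wild-type arrays spread over nearly a log2 unit, with replicate 2 lowest and replicate 3 highest. The log2 difference was 3.42 (SE 0.24, 95% interval 2.87 to 3.97), which is 10.7-fold (adjusted p = 1.91e-05 by limma). The platform carries a further 2 Trib3 probes, both dimmer. They read 8.90 and 8.84, and 8.73 and 8.71, in the arrays labelled Flvcr-deleted. In the arrays labelled wild-type they read 6.81, 6.82 and 7.18, and 6.94, 6.80 and 7.03, close to the floor. Both rose, with log2 differences of 1.93 (SE 0.13) and 1.80 (SE 0.10), and since 1 and 2 of the 3 wild-type arrays lay above the floor, these are at least 3.79-fold and at least 3.45-fold higher (adjusted p = 1.75e-05 and 1.11e-05 over all kept probes, of which 35.2% were called, 18.6% higher). The 3 probes therefore gave the same direction and unequal sizes, and their mean gave a log2 difference of 2.38.

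Chac1 encodes an enzyme that breaks down glutathione inside the cell. Its probe read 9.96 and 10.37 in arrays labelled Flvcr-deleted, against 7.51, 7.30 and 7.57 in those labelled wild-type. The lower of the values labelled Flvcr-deleted still stood more than 2 log2 units above the highest wild-type one. The mean was 10.16 ± 0.29 (SD, n = 2) in the arrays labelled Flvcr-deleted and 7.46 ± 0.14 (SD, n = 3) in those labelled wild-type. That is 2.70 log2 units (SE 0.14), or 6.51-fold, higher by limma (adjusted p = 7.07e-06).

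Nupr1 encodes a small, stress-induced protein of chromatin. It read 9.58 and 9.59 in arrays labelled Flvcr-deleted, against 6.84, 6.79 and 6.92 in those labelled wild-type. The values labelled Flvcr-deleted were nearly identical, and the wild-type ones sat at the floor, with 2 of 3 above it. Its difference is therefore a bound of at least 6.59-fold higher (log2 difference as measured 2.73, SE 0.09, limma, adjusted p = 1.55e-06). For such bounds, each dimmer array was given its own signal but no less than the floor, and the mean of these was set against the brighter mean. Such bounds allow for the floor only and not for how the arrays varied, so they are not lower ends of an interval. The 95% intervals of Nupr1 (2.52 to 2.95), Chac1 (2.38 to 3.03) and Trib3 (2.87 to 3.97) overlap, so the order among these 3 is not settled.

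Stc2, the last effector, encodes the secreted glycoprotein stanniocalcin 2. It read 6.94 and 6.99 in arrays labelled Flvcr-deleted, against 6.68, 6.78 and 6.87 in those labelled wild-type. It passed the filter through the arrays labelled Flvcr-deleted, with 1 of 3 wild-type arrays above the floor, and all its signals were dim. The log2 difference of 0.19 (SE 0.10, 95% interval -0.04 to 0.42) did not pass (limma, adjusted p = 0.178).

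The upstream windows of the 3 effectors that rose, and of Atf3, which stayed near the floor, are printed because they hold, or nearly hold, the letters TGATGCAA, the core of the C/EBP-ATF response element through which ATF4 acts with C/EBP partners. Each is the 250 bases before the annotated start, 5′ to 3′ on the gene's strand, from RefSeq on GRCm38.p6. Capitals mark matches to TGNNGCAA, read on both strands, so that TTGCATCA is TGATGCAA on the opposite strand. The looser pattern was chosen after the windows were seen, and every TGATGCAA is also a match to it.
Trib3, chr2:152344061-152344310, minus strand: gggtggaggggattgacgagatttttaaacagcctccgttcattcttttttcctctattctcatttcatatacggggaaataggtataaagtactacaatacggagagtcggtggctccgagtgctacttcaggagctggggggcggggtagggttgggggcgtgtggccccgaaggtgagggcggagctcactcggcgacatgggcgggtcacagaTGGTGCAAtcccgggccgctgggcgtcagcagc
Chac1, chr2:119350992-119351241, plus strand: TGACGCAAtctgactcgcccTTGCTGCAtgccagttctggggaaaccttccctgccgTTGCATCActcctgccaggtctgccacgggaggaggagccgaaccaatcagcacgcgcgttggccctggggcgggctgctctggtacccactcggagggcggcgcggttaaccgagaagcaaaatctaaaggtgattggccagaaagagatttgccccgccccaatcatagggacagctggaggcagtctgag
Nupr1, chr7:126625471-126625720, minus strand: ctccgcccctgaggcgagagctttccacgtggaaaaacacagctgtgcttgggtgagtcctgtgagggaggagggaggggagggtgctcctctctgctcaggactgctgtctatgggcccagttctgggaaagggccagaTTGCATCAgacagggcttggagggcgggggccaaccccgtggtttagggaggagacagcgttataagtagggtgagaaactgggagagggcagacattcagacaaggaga
Atf3, chr1:191183334-191183583, minus strand: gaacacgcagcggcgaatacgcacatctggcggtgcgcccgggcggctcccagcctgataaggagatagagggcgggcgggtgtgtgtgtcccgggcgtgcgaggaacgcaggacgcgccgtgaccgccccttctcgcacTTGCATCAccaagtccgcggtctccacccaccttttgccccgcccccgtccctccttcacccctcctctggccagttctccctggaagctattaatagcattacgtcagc
TGATGCAA stood in the windows of Chac1, Nupr1 and Atf3, beginning 193, 110 and 110 bases before the start, and in 0.791% of the 32851 mouse promoter windows of the same length. The Trib3 window held TGGTGCAA 33 bases before the start, and that of Chac1 also held TGACGCAA and TTGCTGCA. With TGNNGCAA, a match was found in 5 of the 10 genes (Trib3, Chac1, Nupr1, Atf3 and Atf5) and in 9.59% of all windows. The windows of Atf4, Ddit3, Cebpb, Cebpg and Stc2 held no match, which says only that these letters are not in those 250 bases. Atf3, whose window holds TGATGCAA, was not called, and Cebpb, whose window holds no match, rose.

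Among the transcription factors, Cebpb and Atf5 rose most. Cebpb encodes C/EBP beta, a bZIP factor that can pair with ATF4 and is abundant in myeloid cells. It read 10.02 and 10.21 in arrays labelled Flvcr-deleted, against 8.44, 8.77 and 8.75 in those labelled wild-type. Every array labelled Flvcr-deleted was above every wild-type array. The log2 difference was 1.47 (SE 0.13), which is 2.76-fold (adjusted p = 5.14e-05 by limma). The summed linear signal of the 14 neutrophil markers ran from 6418 to 10821 in the arrays labelled Flvcr-deleted and from 31667 to 36414 in those labelled wild-type. That of the 14 macrophage and monocyte markers ran from 2590 to 3747 in the arrays labelled Flvcr-deleted and from 3414 to 5598 in those labelled wild-type. Of the neutrophil markers 13 lay above the floor in every array labelled Flvcr-deleted and 14 in every array labelled wild-type, and of the macrophage and monocyte markers 12 in each. Cebpb was higher in the group where the neutrophil sum was lower and the macrophage and monocyte sums overlapped. Such sums weigh the brightest genes most, and 9 of the 14 neutrophil markers were not called. Whether cell content has a part in the Cebpb value was not tested.

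Atf5 encodes a bZIP relative of ATF4 that ATF4 can induce and that has been tied to stress in mitochondria. It read 10.53 and 11.06 in arrays labelled Flvcr-deleted, against 9.26, 9.40 and 9.82 in those labelled wild-type. The groups did not overlap, although both spread more widely than for Cebpb. The log2 difference was 1.30 (SE 0.20, 95% interval 0.86 to 1.75), which is 2.47-fold (adjusted p = 8.39e-04 by limma). The intervals of Cebpb and Atf5 overlap, and both lie below those of Chac1, Nupr1 and the brightest Trib3 probe. The intervals of the other Trib3 probes, which end at 2.23 and 2.03, overlap both.

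Atf4 rose by its brighter probe, which read 11.65 and 11.64 in arrays labelled Flvcr-deleted, against 11.41, 10.73 and 11.14 in those labelled wild-type. Wild-type replicate 1 came close to the other group and replicate 2 lay lowest. The log2 difference was 0.55 (SE 0.18, 95% interval 0.15 to 0.96), which is 1.47-fold (adjusted p = 0.0350 by limma). Its other probe read 10.75 and 10.62 in arrays labelled Flvcr-deleted, against 10.44, 10.17 and 10.53 in those labelled wild-type, and did not pass (0.31, adjusted p = 0.0906 over all kept probes). The call was also lost without Flvcr-deleted replicate 1 (adjusted p = 0.116), without Flvcr-deleted replicate 2 (0.102) and, among wild-type arrays, without replicate 3 (0.0514), while without wild-type replicate 2 it held at a log2 difference of 0.37 (0.0483).

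Ddit3 encodes CHOP, a factor of prolonged endoplasmic reticulum stress that acts with ATF4 and is itself a target of it. Its brighter probe read 10.10 and 9.93 in arrays labelled Flvcr-deleted, against 9.76, 9.80 and 10.41 in those labelled wild-type. The groups overlapped, with wild-type replicate 3 the highest array. The log2 difference was 0.03 (SE 0.19, 95% interval -0.40 to 0.46; limma, adjusted p = 0.938). Its dimmer probe read 8.65 and 8.87 in arrays labelled Flvcr-deleted, against 8.99, 8.47 and 9.18 in those labelled wild-type, with a difference of -0.12 (adjusted p = 0.688 over all kept probes). The interval of the brighter Ddit3 probe lies below those of Trib3, Chac1, Nupr1, Cebpb and Atf5.

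Cebpg encodes C/EBP gamma, a short bZIP protein that pairs with ATF4. It read 10.33 and 10.33 in arrays labelled Flvcr-deleted, against 10.54, 10.41 and 10.69 in those labelled wild-type. It lay lower in both arrays labelled Flvcr-deleted, but the log2 difference of -0.22 (SE 0.11, 95% interval -0.47 to 0.03) did not pass (limma, adjusted p = 0.161). A dimmer probe differed by -0.21 and did not pass either, and the third was below the floor on all 5 arrays and was left out. Groups that do not overlap are common here, since they were found in 58.9% of all genes tested, with the Flvcr-deleted label higher in 32.2% and lower in 26.7%.

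Atf3, a bZIP factor induced by many kinds of stress, was at the edge of detection. It read 6.84 and 6.88 in arrays labelled Flvcr-deleted, against 6.71, 6.75 and 6.66 in those labelled wild-type, all 3 of which were below the floor. It passed the filter through the arrays labelled Flvcr-deleted only, and the log2 difference of 0.15 (SE 0.09) did not pass (limma, adjusted p = 0.248). Passing in that way fixed its direction, and with the wild-type arrays set to the floor the ratio of means was 1.02. Atf3 lies near the deleted gene on chromosome 1, with 8 annotated genes between the pair in the RefSeq table, 5 of them protein-coding. Whether that nearness has a part in its value was not tested.

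**Figure D2:**
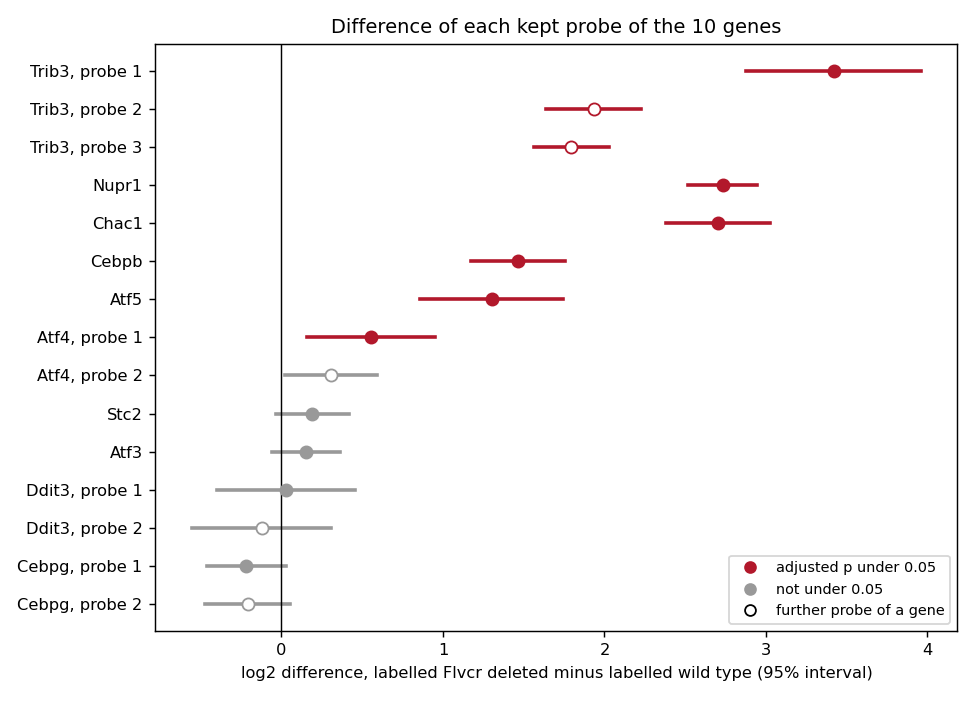
Log2 difference, labelled Flvcr-deleted minus labelled wild-type, of the 15 kept probes of the 10 genes, with 95% intervals from limma; red marks an adjusted p under 0.05 over all kept probes, grey the rest, and open points are the further probes of a gene. The 3 Trib3 probes lie between 1.80 and 3.42, while both probes of Ddit3 and of Cebpg have intervals that include 0.

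The arrays of a group did not vary alike across the 10 genes. Wild-type replicate 3 was the highest wild-type array for 7 of them (Trib3, Chac1, Nupr1, Atf5, Ddit3, Cebpg and Stc2), against 34.9% of all genes tested. Among the 14 tested neutrophil markers the same array was the highest wild-type one for 9, S100a8 among them, and the lowest for 5, Mpo among them. Among the 14 macrophage and monocyte markers it was the highest for 1 and the lowest for 11. Wild-type replicate 2 was the lowest for 5 of the 10, against 32.6% of all genes. Between the arrays labelled Flvcr-deleted, Trib3, Chac1, Nupr1, Cebpb, Atf5, Atf3 and Stc2 were higher in replicate 2. Atf4, Ddit3 and Cebpg were higher in replicate 1. Of the marker genes, 8 of the 14 neutrophil and 3 of the 14 macrophage and monocyte ones were higher in replicate 2. The share of all genes with this order was not worked out, so these counts have no background to be read against. The part of these marker levels in the spread was not tested.

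Likeness of profile was measured as the Euclidean distance between genes over the 5 arrays, in log2 units, after subtracting each gene's mean over the wild-type arrays. Chac1 and Nupr1 lay close together, at 0.32, and each was among the 5 nearest genes of the other and of Trib3. The gene nearest to Nupr1 was Psat1 of serine synthesis, at 0.27. The gene nearest to Chac1 was the tetraspanin Tspan14, at 0.24, followed by the cytokine oncostatin M, Osm, at 0.28. Slc19a1, the reduced folate carrier, was the last of the 5 for Chac1, at 0.54, and Ccnd2, cyclin D2, and Osm completed the list of Nupr1. By its brightest probe Trib3 had no near neighbour: its closest were Trgv4, a T cell receptor gamma segment, at 0.88, Ccnd2 at 1.06 and Cdkn1a, the cell cycle inhibitor p21, at 1.10. These distances describe 5 arrays that share 1 contrast. The profiles were not scaled, so a distance depends in large part on the size of the difference and does not show shared regulation. With the mean of each gene's probes the log2 differences of Ccnd2, Cdkn1a and Osm were 1.88, 1.79 and 1.51, against 2.90, 2.94 and 2.59 by the brightest probe. That of Trib3 was 2.38, against 3.42 by its brightest probe. Distances were not worked out with the mean of probes.

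Other targets of ATF4, a list of 46 genes that excludes the 10 above, mostly rose. The list was chosen with earlier results of these data known. Of 38 tested, 26 were higher, 4 lower and 8 did not pass (68.4% higher and 10.5% lower, against 21.7% and 17.4% of all genes tested). For 3 of the 26, Slc7a3, Aldh1l2 and Gpt2, no wild-type array was above the floor. They passed the filter through the arrays labelled Flvcr-deleted only, which fixed their direction. Of the 30 genes above the floor on all 5 arrays, 21 were higher and 4 lower. The median log2 difference was 0.56, against 0.01 over all genes tested. Psat1 rose most, reading 11.64 and 11.71 in arrays labelled Flvcr-deleted, against 9.15, 8.88 and 8.85 in those labelled wild-type (2.71, SE 0.12, limma, adjusted p = 3.50e-06). Phgdh, the entry enzyme of the same serine pathway, rose by 1.67 (SE 0.11), Wars, the tryptophanyl-tRNA synthetase, by 1.69 (SE 0.11, or 0.85 with the mean of its probes), and Ddit4, an inhibitor of mTORC1, by 1.67 (SE 0.16). Slc7a3, a cationic amino acid transporter, lay below the floor in every wild-type array by its brighter probe, which was at least 3.53-fold higher, while a second probe, above the floor on 2 wild-type arrays and no other, differed by -0.07 and did not pass. Asns, asparagine synthetase, is a classic ATF4 target and rose by only 0.45 (SE 0.10, limma, adjusted p = 0.00589).

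The 4 ATF4 targets that fell were Ppp1r15a, Slc38a2, Cars and Slc1a5. Ppp1r15a encodes GADD34, the inducible subunit that directs a phosphatase to eIF2 and so ends the response. It read 10.63 and 10.53 in arrays labelled Flvcr-deleted, against 12.53, 12.28 and 12.40 in those labelled wild-type. The groups lay well apart, in the direction opposite to Trib3 and Chac1, with a log2 difference of -1.83 (SE 0.11), which is 3.55-fold lower (adjusted p = 1.10e-05 by limma). Slc38a2, a neutral amino acid transporter, differed by -1.36 (SE 0.17), although its other kept probe gave 0.24 and did not pass (adjusted p = 0.112 over all kept probes). Cars, the cysteinyl-tRNA synthetase, differed by -0.97 (SE 0.16). Another Cars probe, at 0.03, was near the floor and above it on 1 array of each group. With the mean of probes the differences were -0.39 for Slc38a2 and -0.32 for Cars. Slc1a5 differed by only -0.29 (SE 0.10, limma, adjusted p = 0.0384). Under the alternatives, 3 or 4 targets were called lower. Slc38a2, Cars and Slc1a5 were named after their values were seen.

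**Figure D3:**
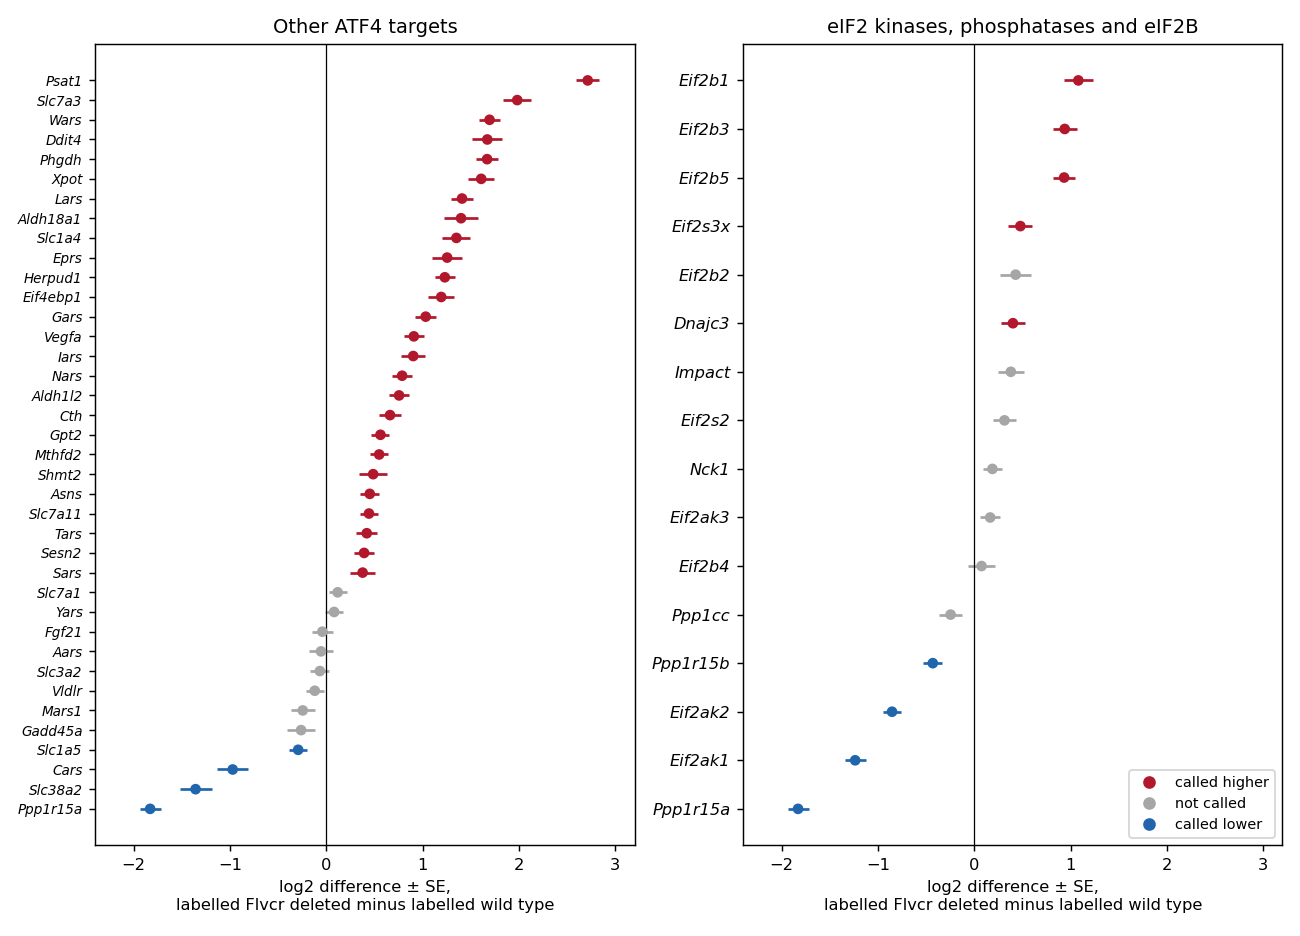
Log2 difference ± SE, labelled Flvcr-deleted minus labelled wild-type, of the 38 tested ATF4 targets outside the 10 genes (left) and of the 16 tested genes of eIF2 phosphorylation and exchange (right); red is called higher, blue called lower and grey not called. Psat1 leads at 2.71 and Ppp1r15a is lowest in both panels at -1.83.

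Upstream of ATF4, Eif2ak1, Eif2ak2, Ppp1r15a and Ppp1r15b, which encode kinases of eIF2 and phosphatase subunits, fell, and 3 subunit genes of its exchange factor eIF2B rose. Of 16 tested genes of this list, 5 were higher (3 without Flvcr-deleted replicate 2), 4 lower and 7 did not pass, with a median log2 difference of 0.25. These shares, 31.2% higher and 25% lower, are not far from the 21.7% and 17.4% of all genes tested. Eif2ak1, which encodes the heme-regulated kinase HRI, read 10.73 and 10.80 in arrays labelled Flvcr-deleted, against 12.11, 12.04 and 11.85 in those labelled wild-type. It fell by 1.24 on the log2 scale (SE 0.11, limma, adjusted p = 5.12e-05), which is 2.36-fold lower. The kinase gene Eif2ak2 (PKR) fell by 0.85 (SE 0.10). The eIF2B genes Eif2b1, Eif2b3 and Eif2b5 rose by 1.08 (SE 0.15), 0.94 (SE 0.12) and 0.93 (SE 0.11). The kinase gene Eif2ak4 was not tested. The phosphatase gene Ppp1cc (-0.25) and the eIF2B genes Eif2b2 (0.43) and Eif2b4 (0.08) did not pass. The kinase gene Eif2ak3 (0.17) did not pass either, but lay near the floor, at 6.92 and 6.86 in arrays labelled Flvcr-deleted. In those labelled wild-type it read 6.71, 6.83 and 6.63, with 1 of 3 above the floor. All values of this list are transcript levels and do not measure kinase activity or eIF2 phosphorylation.

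Genes of protein folding in the endoplasmic reticulum, where CHOP is also induced, rose in part. Of 23 tested, 13 were higher, none lower and 10 did not pass (56.5% higher, against 21.7% higher and 17.4% lower over all genes tested), with a median log2 difference of 0.44. Xbp1, a transcription factor of that response, rose by 1.80 (SE 0.12) and Sdf2l1 by 1.24 (SE 0.15). Herpud1, which is also on the ATF4 list, rose by 1.23 (SE 0.10), and the translocon subunit Sec61a1 by 1.12 (SE 0.14). Another Sec61a1 probe, at -0.02, was near the floor and above it on 1 array of each group. The mean of the Sec61a1 probes gave 0.55. The disulfide isomerases Pdia4 and Pdia3 rose by 1.10 (SE 0.19) and 0.96 (SE 0.11). Creb3, counted among the 13, rose by 0.57 (SE 0.13) by its brighter probe. Another kept Creb3 probe was called lower (-0.55, limma, adjusted p = 0.0124 over all kept probes). Hspa5, the chaperone BiP, was near the floor on all arrays, at 6.95 and 7.02 in the arrays labelled Flvcr-deleted against 6.83, 6.85 and 6.77 in those labelled wild-type, and did not pass (0.17, limma, adjusted p = 0.189). Among 16 mitochondrial chaperone and protease genes, 9 rose, 2 fell and 5 were not called, and the list median was 0.44. The share called higher was 56.2%, against 21.7% of all genes tested, and the share called lower, 12.5%, was below their 17.4%. None was called lower without Flvcr-deleted replicate 2, and 1 was when Flvcr-deleted replicate 1 or either of wild-type replicates 1 and 3 was left out. Hspa9, the mitochondrial HSP70, rose by 1.67 (SE 0.12), Hspd1 and Hspe1, the chaperonin pair, by 1.62 (SE 0.11) and 1.31 (SE 0.20), and the proteases Lonp1 and Clpp by 1.17 (SE 0.16) and 0.83 (SE 0.10). Dnaja3, a mitochondrial co-chaperone, rose by 1.14 (SE 0.12) by its brightest probe. Another probe, dim in both groups (means 6.92 labelled Flvcr-deleted and 7.10 labelled wild-type), gave -0.18 and did not pass. The mean of the Dnaja3 probes gave 0.48.

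Other bZIP genes, whose products could pair with or compete with the 6 factors above, were called at about the rate of all genes. Of 22 tested, 4 were higher, 4 lower and 14 did not pass (18.2% in each direction, against 21.7% higher and 17.4% lower over all genes tested), so the count is no result about this list. The median log2 difference was -0.04, against 0.01 over all genes tested. Junb and Jun, subunits of AP-1, rose by 1.12 (SE 0.14) and 0.47 (SE 0.09). Batf, counted among the 4 called higher, was above the floor on no wild-type array, so the filter fixed its direction. Cebpe, a C/EBP factor of granulocytes that is also one of the neutrophil markers, fell by 0.97 (SE 0.11). Nfe2, an erythroid and megakaryocytic factor, fell by 0.78 (SE 0.11), Atf2 by 0.81 (SE 0.14, or 0.48 with the mean of its probes) and Mafg, a small partner of Nfe2, by 0.54 (SE 0.16), a call that was lost without Flvcr-deleted replicate 1 (-0.28, adjusted p = 0.216) and, among wild-type arrays, without replicate 1 (0.0835) or 2 (0.0618). Cebpd, which is closely related to Cebpb, differed by -0.26 and did not pass (limma, adjusted p = 0.0719).

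**Figure D4:**
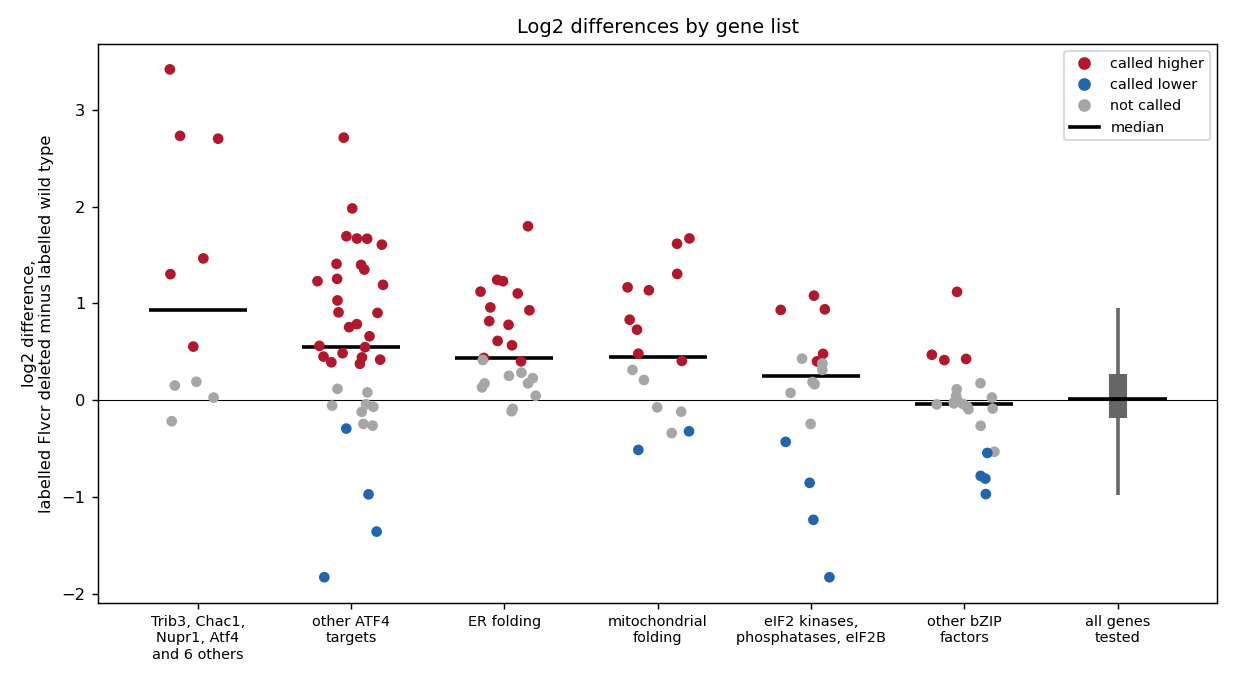
Log2 difference, labelled Flvcr-deleted minus labelled wild-type, of every tested gene in the 10-gene set and in 5 related lists, coloured by call, with black bars at list medians; the grey bar for all 10133 genes spans the 25th to 75th percentile and the thin line the 5th to 95th. The 5th to 95th percentile of all genes runs from -0.98 to 0.96, and Trib3, Nupr1, Chac1, Cebpb and Atf5 lie above it.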

How the data were processed

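Expression of marrow erythroblasts was measured on 5 Illumina arrays, grouped by sample titles. The values the authors deposited were taken as log2 signals. No source used here states scale or normalization: every array shares a distribution from 6.35 to 15.06, as quantile normalization gives, and the highest value, 34186 if taken back from log2, fits a scanner limit of 65535. An unsubtracted background or added constant would make fold changes of dim genes too small. A table of signals before normalization was not used, because its 10 columns match no sample label. A floor of 6.83 was set from the peak of all signals plus 1.64 times its lower spread, and 17826 probes above it on at least 2 arrays were kept. The brightest kept probe stood for each of 10133 genes. Genotype was fitted with limma 3.58.1 (R 4.3.3), two-sided, with Benjamini-Hochberg adjustment over all genes, called under 0.05. A separate fit over all kept probes served further probes. The fit was also run on simulated data with independent noise and few changed genes, which is no check of the calls made here. Members and lists were chosen with earlier results of these data known. Named are the 10 genes, Flvcr1, up to 6 called genes of largest change per list, Eif2ak1, Ppp1r15a, Asns, Psat1, Hspa5 and the 5 nearest profiles of Trib3, Chac1 and Nupr1. Cebpd, Batf, Ppp1r15b, Aldh1l2, Gpt2, S100a8, Mpo, Creb3, Eif2b2, Eif2b4, Eif2ak3, Ppp1cc and the erythroid markers were named after their values were seen. Eif2ak4 was named as a kinase gene that was not tested. Symbols were brought up to date through RefSeq (GRCm38.p6). Alternatives were normexp correction, 2 other filters, the mean of probes, a variance trend, leaving out each array and a replicate block.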

Additional observations from a re-analysis of the deposited data

How the results depend on the processing

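Trib3, Chac1, Nupr1, Cebpb and Atf5 were called higher under every alternative run that tested them, and Atf3, Stc2, Cebpg and Ddit3 were called under none; with the floor required on all 5 arrays, Nupr1, Atf3 and Stc2 were not tested. Atf4 was no longer called without the filter on dim probes (0.55, adjusted p = 0.0695), and leaving out 1 array gave 0.37 to 0.71. The difference of Ddit3, not called, turned negative with the mean of its probes (-0.048), and without 1 array it was between -0.090 and 0.24, negative when the array was Flvcr-deleted replicate 1 (-0.056) or, among wild-type arrays, replicate 1 (-0.090) or 2 (-0.067). The cause was not tested. Counts over all genes stayed within 1640 to 2333 higher and 1359 to 1902 lower. List medians moved with the filter, which changes the genes tested. With the floor on all 5 arrays they were 0.52 (ATF4 targets), 0.70 (endoplasmic reticulum) and 0.31 (eIF2), without a filter 0.45, 0.34 and 0.19, and with normexp correction 0.70, 0.56 and 0.29. With the mean of probes the eIF2 median was 0.18. Leaving out 1 array gave medians of 0.44 to 0.58 (endoplasmic reticulum), 0.17 to 0.28 (eIF2), 0.40 to 0.51 (mitochondrial) and -0.093 to 0.042 (bZIP), 3 to 6 eIF2 genes higher and 0 to 2 mitochondrial genes lower. With normexp correction or a variance trend 1 mitochondrial gene was lower. With the replicate block, which rests on the replicate numbers of the titles and leaves wild-type replicate 3 without a partner, the medians were 0.52 (endoplasmic reticulum) and 0.51 (mitochondrial), 1 mitochondrial gene was lower, Atf4 kept its call (0.58, adjusted p = 0.00570), and 2333 genes were higher and 1902 lower. For same-numbered arrays, deviations from group means correlated at -0.03 for number 1 and 0.10 for number 2 across genes. With 2 arrays labelled Flvcr-deleted, their deviations mirror each other, so this check cannot decide whether the numbers are pairs. The titles give no pairing beyond the numbers, and the main fit did not use them. Dim signals near the floor limit Atf3, Stc2, Hspa5, Eif2ak3 and, in the wild-type arrays, Nupr1.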
